A study of Drosophila melanogaster with 6 samples.

Results

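Transcripts of 10 genes that license and run DNA replication forks were followed in RNA recovered with the protein Isha from fruit fly embryos: the 6 subunit genes of the MCM helicase (Mcm2, Mcm3, dpa, Mcm5, Mcm6 and Mcm7), the origin recognition genes Orc1 and Orc2, the sliding clamp gene PCNA and RnrS, the small subunit of ribonucleotide reductase. They were taken by name, and all 10 were found among the 17612 genes of the count table by exact coordinates of the dm6 genome build. The study used RNA immunoprecipitation followed by sequencing (RIP-seq) with the aim of finding transcripts, above all that of su(Hw), bound by Isha in the embryo. All libraries came from nuclear extract of wild-type Oregon R embryos of Drosophila melanogaster, a mixture of stages from 0 to 24 h after laying, so every library pools many animals and tissues. The Isha RIP group (3 libraries) held RNA from beads with a rabbit antiserum against Isha (Isha-Rb94), after preclearing on beads with preimmune serum, and the input group (3 libraries) held RNA of such extract with no antibody. An immunoprecipitation with a control serum was not analysed here, and binding to Isha cannot be told apart from binding to serum or beads.

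Before S phase, the origin recognition complex and its helpers load the ring of MCM subunits around DNA, and this loading licenses an origin to fire. The ring is later switched on as the replicative helicase, PCNA clamps the polymerases to the template behind it, and ribonucleotide reductase supplies the deoxynucleotides. Fly embryos are laid with maternal stores of these products, and later transcription of PCNA, RnrS, Orc1 and the MCM genes follows the transcription factor E2F with its partner Dp in cells that enter S phase.

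Total counts per library ranged from 29344529 to 31680173 for input and from 8386414 to 14342543 for RIP, so precision was set by the RIP libraries. The members held 407 to 3724 counts per input library and 78 to 1108 counts per RIP library. Levels are given as CPM, read counts scaled to a common library size with TMM factors (0.986 to 1.01). Nothing in the labels ties the libraries of a group to separate collections of embryos. The p-values therefore measure only how these libraries spread, and that spread may be technical. A level in such a pooled extract does not tell fewer cells making a transcript from less RNA per cell. Markers of embryonic tissues bore out the mixed source. All 5 neuron markers (summed 750.9 to 793 CPM in input and 1424 to 1507 in RIP) and all 5 muscle markers were detected. So were 5 of 5 maternal and germ plasm genes (bcd, osk, nanos, pgc and gcl), from 1.38 CPM in input for osk to 149 CPM for gcl. The fat body genes Fbp1 and Lsp1alpha were too low to test. From the same list apolpp averaged 10368 CPM in input and 17090 CPM in RIP, and Idh 134 and 91.4 CPM.

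The 10 replication transcripts were, as a set, under-represented in Isha RIP. These genes were chosen with earlier results of these data known. Of the 10 genes, 8 were depleted, 0 were enriched and 2 (dpa and Orc2) did not pass the threshold, an adjusted p of 0.05 in the quasi-likelihood test of edgeR (Benjamini-Hochberg over all 11764 tested genes). Of all tested genes 30.4% were depleted and 27.0% were enriched by the same rule. No member was called as enriched by DESeq2 or limma-voom either, and 0 had a log2 fold change above 0, so none reached an unadjusted p under 0.05 in that direction. The median log2 fold change of the members was -0.91, against -0.05 for all tested genes. In all 10 members every RIP library was below every input library, which held for 34.0% of tested genes. For dpa the nearest libraries were at 77.02 CPM in input and 76.7 CPM in RIP, and the order was not checked under other scalings. Summed over the members, the level was 618.5 to 647 CPM in input libraries and 335 to 384 CPM in RIP libraries. Enriched and depleted are relative to the typical transcript of a library, not to an amount of RNA.

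**Figure D1:**
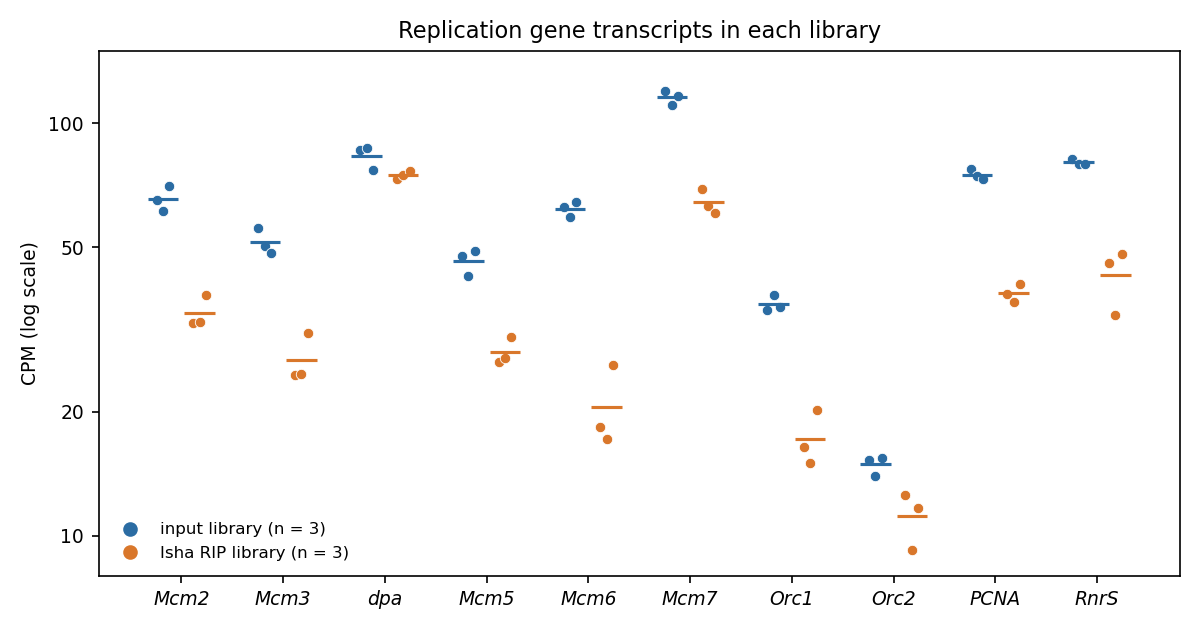
CPM on a log scale of each of the 10 genes in the 3 input libraries (blue) and the 3 Isha RIP libraries (orange), with a line at each group's mean. RIP points lie below input points for every gene, by the widest gap in Mcm6 (62.1 to 20.5 CPM) and the narrowest in dpa (83.4 to 75.03 CPM).

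The subunits of the MCM ring differed in how far they were depleted, although the protein ring holds each of them once. Mcm6 (chromosome X, 6674387 to 6677176, plus strand, dm6), one of the motor subunits, was the furthest down. Its level was 62.6, 59.4 and 64.3 CPM in the input libraries and 18.4, 17.2 and 26.0 CPM in the RIP libraries. The groups were far apart, and RIP replicate 3 was the highest of its group. The log2 fold change was -1.58 (SE 0.138, edgeR adjusted p = 1.10e-09), a 2.99-fold difference at percentile 5.89 of all tested genes. Without RIP replicate 3 it was -1.81.

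Mcm2 (chromosome 3R, 8264970 to 8267924, plus strand), which with Mcm5 forms the gate through which DNA enters the ring, was measured at 65.2, 61.3 and 70.5 CPM in input and at 32.9, 33.01 and 38.4 CPM in RIP. The log2 fold change was -0.91 (SE 0.109, edgeR adjusted p = 1.84e-07). Mcm5 (chromosome 3R, 10788524 to 10791150, plus strand) was measured at 47.6, 42.7 and 49.1 CPM in input and at 26.4, 27.0 and 30.3 CPM in RIP. At a log2 fold change of -0.73 (SE 0.121, edgeR adjusted p = 1.78e-05) it was the least depleted of the called members. Both gate subunits thus lay apart between groups, with RIP replicate 3 highest among the RIP libraries of each.

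Mcm3 (chromosome X, 5323855 to 5326738, plus strand), the neighbour of Mcm5 in the ring, stood at 55.7, 50.5 and 48.5 CPM in input and at 24.6, 24.6 and 31.03 CPM in RIP, a log2 fold change of -0.94 (SE 0.125, edgeR adjusted p = 9.65e-07). Mcm7 (chromosome 3L, 8891596 to 8894310, plus strand), a motor subunit, had the highest CPM of the members in input, with 120.02, 110.9 and 116 CPM in input and 69.4, 62.9 and 60.7 CPM in RIP. The log2 fold change was -0.85 (SE 0.082, edgeR adjusted p = 5.95e-09), and here RIP replicate 3 was the lowest of its group. Of the Mcm7 exon bases, 81.7% lie opposite asRNA:CR45871, an antisense RNA. That gene held 0, 5 and 7 counts in input and 0 in every RIP library, which allows up to 3 counts each, counting error only. Whether reads were counted by strand is not stated. If reads in the overlap were dropped as ambiguous, the Mcm7 count would rest on the other 448 exon bases.

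dpa (chromosome 2R, 7496702 to 7500145, minus strand) is the fly gene for the subunit called Mcm4 in other species, a motor subunit beside Mcm6 and Mcm7. It was measured at 86.3, 87.04 and 77.02 CPM in input and at 73.5, 74.9 and 76.7 CPM in RIP, so that the lowest input library and the highest RIP library nearly met. The log2 fold change was -0.15 with a 95% interval of -0.33 to 0.02 (edgeR adjusted p = 0.131), which leaves room for a small depletion and not for one of the size seen in the other subunits.

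The make-up of the MCM transcripts was then compared within each library. Per kilobase of exon, dpa supplied 17.3% ± 1.38 (SD, n = 3) of the summed MCM level in input and 26.8% ± 0.927 in RIP. Mcm6 supplied 14.2% ± 0.392 in input and 8.01% ± 1.47 in RIP. Both shares lay apart between all input and all RIP libraries. So did that of Mcm2, by less, with 14.4% ± 0.879 in input and 13.1% ± 0.611 in RIP. The shares of the other subunits overlapped, such as Mcm7 with 30.1% ± 0.249 in input and 28.9% ± 2.86 in RIP, and Mcm5 with 12.1% ± 0.609 and 12.5% ± 0.445. This ratio within a library does not depend on library scaling. The shares take all exon bases of Mcm7, and would change if reads in its overlap with asRNA:CR45871 were dropped. The log2 level of dpa minus the mean log2 level of the other 5 subunits was 0.17, 0.30 and 0.02 in input and 1.05, 1.12 and 0.90 in RIP. Its group means differed by 0.86 (exact permutation test, 2-sided p = 0.1, the smallest that 3 against 3 libraries allow). For Mcm6 the same quantity was -0.22, -0.20 and -0.13 in input and -1.18, -1.26 and -0.81 in RIP, with the same p. Both subunits were chosen for this comparison after their values were seen.

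**Figure D2:**
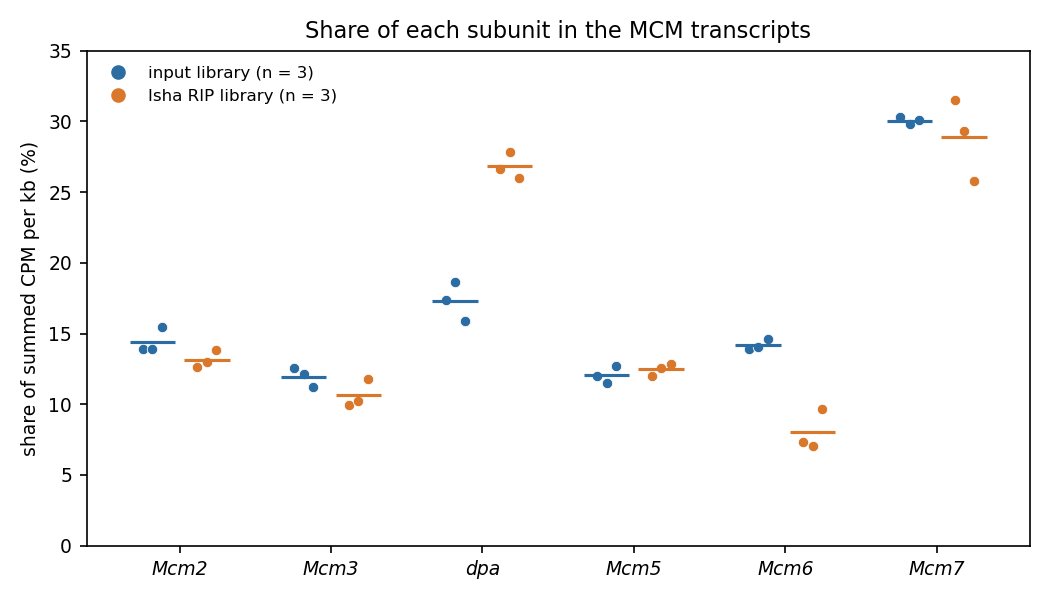
Share (%) of each MCM subunit transcript in the summed CPM per kilobase of exon of the 6 subunits, for the 3 input (blue) and 3 Isha RIP libraries (orange), with a line at each group's mean. The mean share of dpa is 17.3% in input and 26.8% in RIP and that of Mcm6 is 14.2% and 8.01%, while the points of Mcm5 and Mcm7 overlap between groups.

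The origin recognition genes differed from each other in outcome. Orc1 (chromosome 2R, 7522437 to 7525716, minus strand), an ATPase subunit that helps to load the ring and whose level follows the cell cycle in flies, was measured at 35.2, 38.3 and 35.9 CPM in input and at 16.4, 15.03 and 20.2 CPM in RIP. Its input level was 2.10 times that in RIP (log2 fold change -1.07, SE 0.146, edgeR adjusted p = 1.22e-06). Mcm6 and Orc1 were the 2 called members lower by at least 2-fold, a class that held 12.8% of tested genes. Orc1 lies 22291 bases from dpa on the same strand. These neighbours sat far apart among the members, at percentiles 13.9 and 45.6 of all tested genes.

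Orc2 (chromosome 3R, 13964885 to 13967075, plus strand), a core subunit of the same complex, had the lowest CPM of the members. It was measured at 15.3, 13.97 and 15.5 CPM in input and at 12.6, 9.23 and 11.7 CPM in RIP, from 78 to 169 RIP counts. The groups did not overlap but lay close, and the log2 fold change of -0.41 (SE 0.199, edgeR adjusted p = 0.0816) did not pass. A strict filter on low counts tests fewer genes and scales the libraries anew. With it Orc2 moved to -0.47 and was called (edgeR adjusted p = 0.0385). With a gene length offset Orc2 moved to -0.22 (edgeR adjusted p = 0.365). Its 95% interval, -0.83 to -0.0004, did not reach the Orc1 estimate of -1.07. Whether Orc2 was depleted was thus not resolved, and its difference from Orc1 was not tested.

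The clamp and the nucleotide enzyme were depleted to nearly the same degree as Mcm2 and Mcm3. PCNA (chromosome 2R, 20261754 to 20262883, minus strand) was measured at 77.5, 74.7 and 73.1 CPM in input and at 38.5, 36.8 and 40.8 CPM in RIP, the tightest groups of the called members in RIP. The log2 fold change was -0.95 (SE 0.097, edgeR adjusted p = 1.55e-08). RnrS (chromosome 2R, 11983145 to 11985393, minus strand) was measured at 82.02, 79.6 and 79.8 CPM in input and at 45.9, 34.3 and 48.3 CPM in RIP, with RIP replicate 2 well below the others. Its log2 fold change was -0.90 (SE 0.110, edgeR adjusted p = 2.35e-07), and -0.77 without RIP replicate 2. PCNA and RnrS are the shortest members, and with an offset for gene length their log2 fold changes came down to -0.69 and -0.65, still called.

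Per kilobase of exon, the order of levels in input began with PCNA (70.2 CPM per kb ± 2.08, SD, n = 3), RnrS (50.5 ± 0.854) and Mcm7 (47.2 ± 1.87). It went on with dpa (27.2 ± 1.82), Mcm2 (22.7 ± 1.60), Mcm6 (22.3 ± 0.895), Mcm5 (18.9 ± 1.35), Mcm3 (18.8 ± 1.33), Orc1 (11.6 ± 0.520) and Orc2 (7.47 ± 0.408). Mcm2 and Mcm6 could not be ordered beyond their spread, nor could Mcm5 and Mcm3. The Mcm7 level takes all of its exon bases, and its rank could change if reads in the antisense overlap were dropped. In RIP the order kept PCNA on top (36.2 CPM per kb ± 1.87), while RnrS (26.9 ± 4.69), Mcm7 (26.3 ± 1.83) and dpa (24.4 ± 0.536) came within the spread of RnrS. Mcm6 dropped to 7.35 ± 1.71, below every other MCM gene, and Orc1 (5.46 ± 0.840) and Orc2 (5.60 ± 0.872) could no longer be ordered. RIP replicate 3, the deepest RIP library, was the highest of its group for 8 of the 10 members. The median coefficient of variation over members was 4.98% in input and 11.5% in RIP.

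Members with more exons had log2 fold changes nearer to 0. Merged over transcripts, Mcm6 has 1 exon block, Mcm2 and PCNA have 2, Mcm3, Orc1 and RnrS have 3, Mcm5 and Orc2 have 4, Mcm7 has 5 and dpa has 7. The Spearman correlation of the log2 fold change with the number of blocks was 0.85 across the 10 genes, which share the same libraries. With intron length (0 bases in Mcm6 to 656 in RnrS) it was 0.76, and with exon length (1070 to 3152 bases) it was -0.14. The correlation with exon blocks was 0.39 in 64 other replication genes and 0.18 in all 10740 tested protein-coding genes. Protein-coding genes had a median of -0.33 with 1 block, -0.28 with 2, -0.18 with 3, -0.13 with 4, -0.08 with 5 to 6 and 0.12 with 7 or more. Mcm6 therefore lay well below the median of genes with 1 block. The relation was noticed in these values and is a description.

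**Figure D3:**
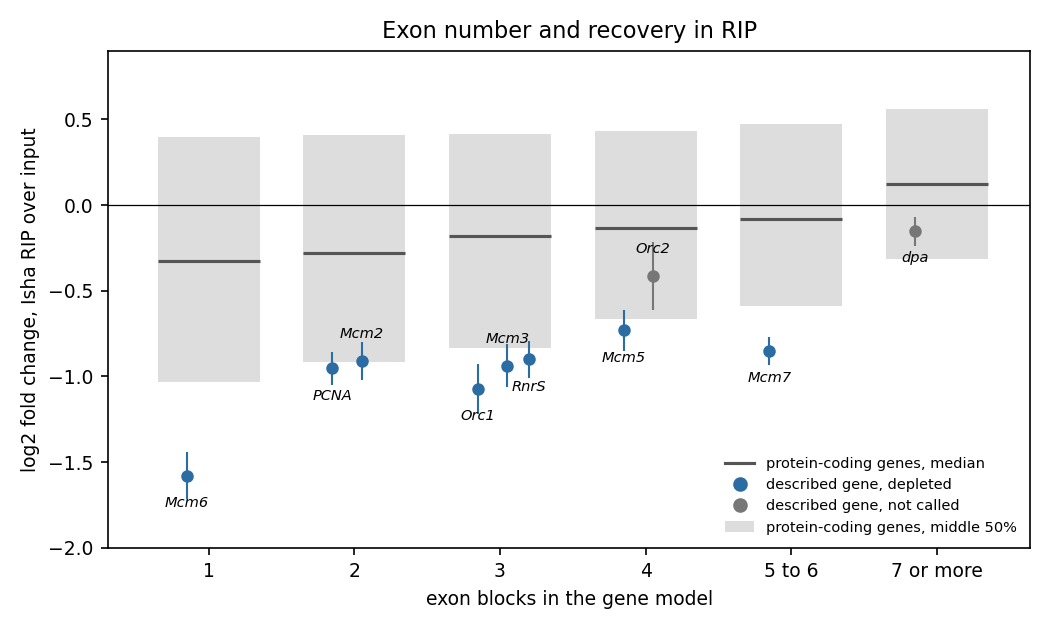
Log2 fold change of Isha RIP over input against the number of exon blocks. Grey boxes span the middle 50% of tested protein-coding genes with a line at their median, points are the 10 genes with their standard error (blue depleted, grey not called), and the points run from -1.58 in Mcm6 with 1 block to -0.15 in dpa with 7.

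The calls held under most other settings. In a test against a 1.5-fold change, 7 of the 10 members were depleted, against 14.5% of tested genes, and the call that was lost was that of Mcm5 (adjusted p = 0.126). With an offset for gene length the median of the members was -0.72 and the 8 calls stood, beside 28.5% of tested genes. Exons of 4 members overlap another gene on the opposite strand. Apart from Mcm7 these overlaps cover 2.33% of Mcm3 (CG3309), 3.33% of Orc1 (PIG-G) and 0.752% of Orc2 (rdx). The neighbour rdx was enriched (log2 fold change 0.81), and CG3309 and PIG-G were depleted (-1.83 and -1.59). In the 6 members with no overlap 5 were depleted, beside 30.4% of all tested genes in the main test.

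**Figure D4:**
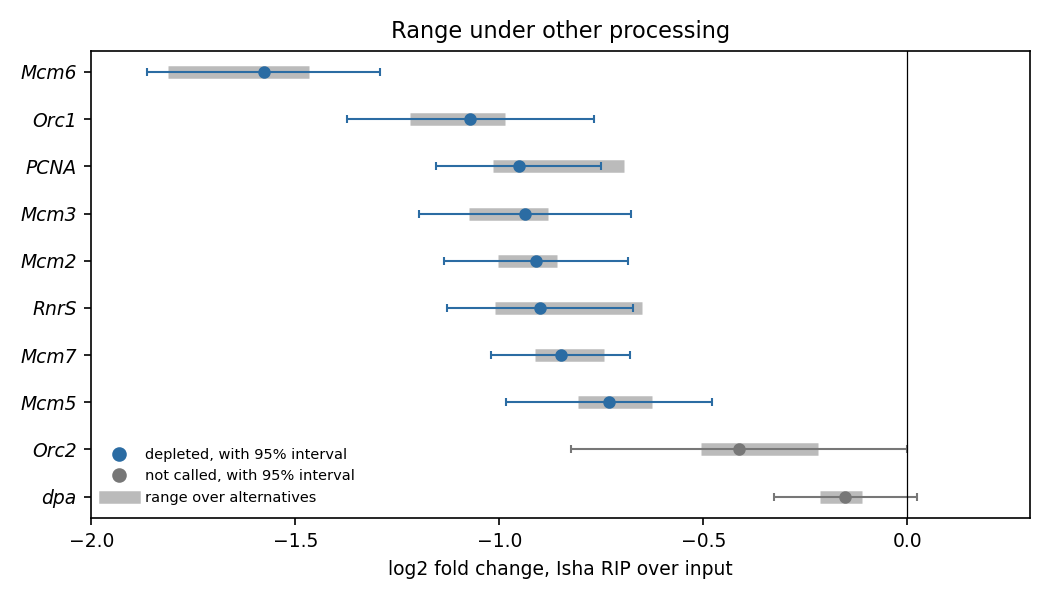
Log2 fold change of Isha RIP over input for each gene (point) with its 95% interval (thin bar) and the range over 17 or 18 other settings (thick grey bar). No range reaches 0, and the ranges of dpa (-0.21 to -0.11) and Orc2 (-0.51 to -0.22) lie nearest to it.

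Other genes of the replication pathway lay on both sides of input. Of 64 tested genes in 8 further lists, 21 were depleted, 9 were enriched and 34 did not pass, with a median log2 fold change of -0.26. The depleted share of 32.8% was near the 30.4% of all tested genes, and the enriched share was 14.1% beside 27.0%. Among partners of the origin complex, Orc5, Cdc6 and Orc4 were depleted at log2 fold changes of -0.999, -0.86 and -0.75, and 0 of 6 were enriched (edgeR, also at an unadjusted p under 0.05 and by DESeq2). The loader dup (Cdt1 in other species) and its inhibitor geminin, named after their values were seen, did not pass in the main test and stood at 97.3 CPM ± 7.73 (SD, n = 3) against 99.1 ± 7.52 and at 53.3 ± 5.26 against 55.1 ± 6.19. With a gene length offset geminin was called as enriched (log2 fold change 0.31, edgeR adjusted p = 0.0205). Of 9 helicase activation genes Cdc45, the partner of MCM in the running helicase, was depleted (-0.62) with overlapping groups and RecQ4 was enriched (0.41). Cdc45 lost its call without input replicate 2 (-0.51), RIP replicate 1 (-0.56) or RIP replicate 3 (-0.46). RecQ4 lost its call without input replicate 1 (0.40), input replicate 2 (0.31), RIP replicate 1 (0.40) or RIP replicate 2 (0.35). Neither was called with a gene length offset (-0.47 and 0.24). The MCM paralogue rec, a meiotic recombination gene, was low at 4.79 CPM ± 0.352 against 4.07 ± 1.04 and did not pass.

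Enzymes that make nucleotides were depleted along with RnrS: 4 of 6 passed, with a list median of -0.94. The thymidylate synthase gene Ts averaged 14.8 CPM in input (SD 1.73, n = 3) and 3.08 CPM in RIP (SD 0.341). The nucleoside diphosphate kinase gene awd averaged 184 CPM ± 17.2 and 28.4 ± 3.21, and dUTPase averaged 53.5 CPM ± 5.28 and 22.5 ± 0.693. RnrL, the partner subunit of RnrS, was depleted at -0.62, and dnk did not pass. Of 15 genes for the clamp loader, single-strand binding and the lagging strand, 5 were depleted and 9 did not pass. That depleted share of 33.3% was near the 30.4% of all tested genes. By smallest adjusted p, the depleted genes were led by RfC3 at -1.10, cutlet at -0.89 and RfC38 at -0.84. Top1, the topoisomerase that relaxes DNA ahead of forks and transcription, was the 1 enriched, at 249 CPM ± 12.7 against 484.5 ± 22.4.

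Transcripts of the S phase regulators E2f1 and Dp went the other way from the members. E2f1 was measured at 208, 195 and 209.7 CPM in input and at 523.5, 552 and 521 CPM in RIP, far apart (log2 fold change 1.38, SE 0.050, edgeR adjusted p = 1.92e-16). Dp averaged 177 CPM in input (SD 7.75, n = 3) and 266 CPM in RIP (SD 8.09; log2 fold change 0.58, edgeR adjusted p = 7.74e-09). Of the other 6 genes of this list, Cdk2, the kinase partner of cyclin E, was depleted (-0.53) and 5 did not pass. Among those 5 was the other E2F gene of the list, E2f2, at 53.9 CPM in input and 53.9 CPM in RIP. Thus the E2f1 and Dp transcripts were above input while PCNA, RnrS and Orc1, known targets of E2F, were below it. The ratio of RIP to input does not measure transcription of these genes. Exons of E2f1 overlap asRNA:CR46055 and those of Dp overlap Fsn. Exons of Orc4, Orc5, dup, rec, RfC38, Cdk2, Ts, awd and dUTPase also overlap another gene.

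**Figure D5:**
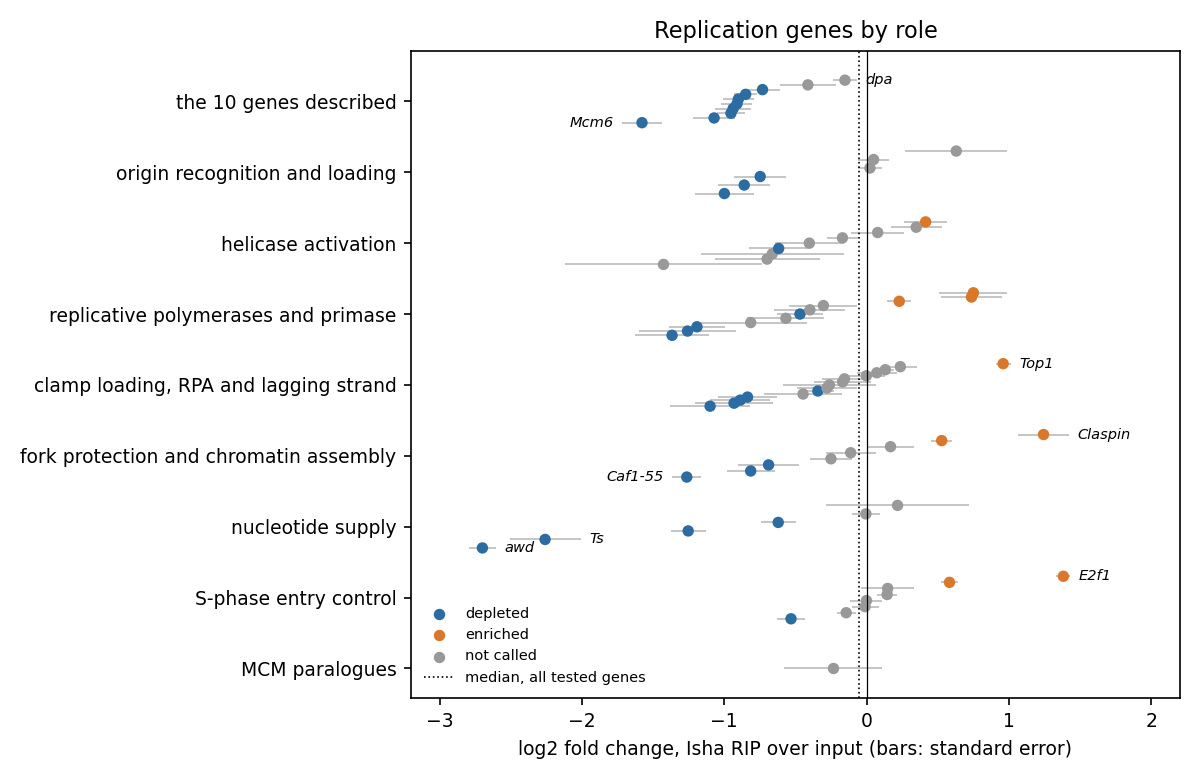
Log2 fold change of Isha RIP over input with its standard error for the 10 genes and for the other replication genes by role (blue depleted, orange enriched, grey not called; dotted line, the median of all tested genes, -0.05). The 10 genes all lie left of the dotted line, whereas the other lists of more than 1 gene spread to both sides, with E2f1 (1.38), Claspin (1.24) and Top1 (0.96) furthest to the right.

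Tissue markers moved between the groups as well. All 5 neuron markers were enriched (median log2 fold change 0.81). All 5 gut enzyme genes, the Jon proteases and the amylase gene Amy-d, were depleted (median -2.09). Of 5 hemocyte markers, 4 were depleted (list median -0.80) and the other one, srp, was enriched at a log2 fold change of 1.30. Of 5 neural stem cell markers, cells that divide in the embryo, 3 were depleted and 1 was enriched (list median -0.57). Of 5 muscle markers, 3 were enriched and 2 were depleted (list median 0.53). Of 3 tested fat body and hemolymph genes, apolpp was enriched (0.72), Idh was depleted (-0.55) and Lsp2 did not pass. Neural stem cell markers summed to 229 to 249 CPM in input, against 176 to 193 CPM in RIP. The part of these neural stem cell markers' tissue in the depletion of the replication genes described here was not tested.

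The genes whose profile over the 6 libraries was most like the mean profile of the members, by the smallest Euclidean distance of centred log2 CPM among 7640 genes of at least 10 CPM, were Vps29 (distance 0.056), Mal-A5 (0.083), alphaTub84B (0.086), Alg9 (0.091) and CG33253 (0.102). For comparison the members themselves lay at distances from 0.154 (PCNA) to 0.957 (Mcm6) from that mean.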

How the data were processed

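RIP-seq and input libraries of embryo nuclear extract were compared, 3 of each, with groups and replicate numbers from the sample titles. The authors deposited raw read counts per gene, beside exon coordinates and exon length. Build dm6 and the tools HISAT2 2.2.1, cutadapt 2.9, featureCounts, Picard 2.22.2, DESeq2 1.32.0, Subread 2.0.0 and R 4.1.0 are named, with no order, in the submitters' processing notes. Annotation version, strand setting, duplicates and multiply placed reads are not given in the sources, and could move counts of overlapping genes.

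Symbols came from RefSeq genes of the same assembly by exact coordinates (17170 genes) or identifier (16). Orc3, chif and Tipin could not be matched. Genes passing filterByExpr (minimum count 10) were scaled with TMM and tested with edgeR's quasi-likelihood F-test, group as the only term, 2-sided, Benjamini-Hochberg adjustment, calls under 0.05 (R 4.3.3, edgeR 4.0.16, limma 3.58.1, DESeq2 1.42.0). The standard error is the size of the log2 fold change divided by the root of F. Level per length is CPM over kilobases of exon. The workflow was tested on simulated counts. The 10 genes and the lists were chosen with earlier results of these data known. Named genes were all members, up to 3 called genes per direction in each other list by smallest adjusted p, single-gene lists, overlapping genes and the 5 closest profiles. RnrL, dnk, dup, geminin, E2f2 and PolE1 were named in addition, with their values known. Libraries of a group differed by more than sampling noise (chi-square per degree of freedom 5.78 to 14.3), and each counted as 1 replicate. Alternatives covered normalization, tool, filters, block, length, depth, overlap and left-out libraries.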

Additional observations from a re-analysis of the deposited data

How the results depend on the processing

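Under 18 alternatives the number of depleted members was 7 to 10, apart from 5 of the 6 left without overlapping genes, and leaving out 1 library gave 8 each time. None was enriched in any of them (edgeR, DESeq2 and limma-voom). The members' median log2 fold change was -1.003 to -0.856 without 1 library and -0.72 with a gene length offset. dpa (edgeR adjusted p = 0.0252) and Orc2 passed with the strict filter of at least 50 counts in every library. The libraries were scaled anew after that filter, and dpa stood at -0.21, Orc2 at -0.47 and the members' median at -0.97. Mcm5 lost its call in the test against 1.5-fold. For the other replication genes, the test against 1.5-fold left 9 depleted and 3 enriched, and leaving out overlapping genes 12 and 5, since fewer genes were tested; without 1 library the counts were 19 to 22 depleted and 6 to 9 enriched. Over all genes, the main test called 3573 depleted and 3176 enriched, and the strict filter 3019 and 2773. The test against 1.5-fold called 1703 and 1345, and the set without overlapping genes 2343 and 2053. Without 1 library the counts were 3204 to 3533 and 2908 to 3034. dup turned to -0.0181 with upper quartile scaling and -0.0389 with the strict filter, and ranged from -0.0406 to 0.0699 without 1 library. geminin turned to -0.0131 with the strict filter and ranged from -0.0261 to 0.128 without 1 library; with the gene length offset it was 0.307 and called as enriched. The cause was not tested. Same-numbered libraries did not deviate together (correlations -0.04 to -0.01). With noise specific to each library, this cannot tell whether they came from the same extract. With the replicate block 8 members were depleted, and over all genes 3520 were depleted and 3065 enriched. Orc2 rested on 78 to 169 RIP counts. Orc5, with 56 to 145 RIP counts, was called at a larger log2 fold change (-0.999).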

Other observations

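Subunits of a single replication complex were found on both sides of input. In the polymerase alpha complex, the catalytic subunit gene PolA1 averaged 87.9 CPM in input (SD 0.642, n = 3) and 103 CPM in RIP (SD 12.7) and was enriched (log2 fold change 0.23, edgeR adjusted p = 0.0261), while PolA2 was depleted from 19.9 CPM ± 1.52 to 8.74 ± 1.65 (-1.19). The call of PolA1 was lost under 9 of 17 alternatives, the gene length offset among them (0.07). In polymerase epsilon, PolE2 was depleted from 10.6 CPM ± 0.933 to 4.08 ± 0.547 (-1.37). The catalytic subunit gene PolE1 was depleted by less (-0.47). The histone-fold subunit genes PolE4 and Chrac-14 were enriched at 0.74 and 0.75. The call of PolE4 was lost without RIP replicate 2 (0.49), and that of Chrac-14 without input replicate 2 or RIP replicate 1 (0.55 and 0.56). Both enriched calls were also lost in the test against 1.5-fold (edgeR adjusted p = 0.257 and 0.264).

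In the chromatin assembly factor CAF-1, which places histones behind the fork, Caf1-180 was enriched from 91.7 CPM ± 4.71 to 132 ± 9.14 (0.53) and Caf1-55, a histone binder shared with other complexes, was depleted from 103 CPM ± 5.18 to 42.8 ± 6.22 (-1.26). In CAF-1 the 2 genes have like input levels and 3 exon blocks each, with exon lengths of 4043 and 1828 bases. Claspin, which couples forks to the checkpoint, was enriched from 10.8 CPM ± 1.57 to 25.5 ± 3.28 (1.24), and Ctf4 and asf1 were depleted (-0.69 and -0.81). Ctf4 lost its call without RIP replicate 3 (-0.53). Each gene was tested against input on its own, and the differences between subunits were not tested. PolA1 overlaps Jhbp16 and PolE4 overlaps qkr58E-1 on the opposite strand.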
